A study of Mus musculus with 19 samples.

Results

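Cholesterol is built from acetyl-CoA through the mevalonate pathway, which first makes isoprenoid units, then joins them into squalene, closes squalene to lanosterol and trims lanosterol to cholesterol. The transcription factors SREBP1 and SREBP2, encoded by *Srebf1* and *Srebf2*, drive many of the genes in this pathway. They are held in the endoplasmic reticulum with their escort SCAP by the INSIG proteins while sterol is plentiful, and they are released to the nucleus when it runs low. Cholesterol that enters through lysosomes leaves them through NPC2 and NPC1, surplus cholesterol is esterified by SOAT1, and the ABC transporters ABCA1 and ABCG1, targets of the oxysterol receptors LXR, carry it out of the cell. In the lung, alveolar type II cells package phospholipid and cholesterol into surfactant, and such cells are thought to be a major source of tumors like those studied here.

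The members described here were 31 genes, fixed by name: 19 enzymes of sterol synthesis and 12 genes of SREBP control, sterol movement, esterification and efflux. They cover most steps of the pathway and not all of them. All 31 were among the 53558 genes listed in the files, and all 31 were among the 13986 genes that passed the filter on low counts. The libraries came from neoplastic cells of lung tumors that had grown for 17 weeks in mice of mixed C57BL/6J and 129 background whose alleles included R26LSL-tdTomato and H11LSL-Cas9, so that every group, the control included, carried tdTomato and Cas9 in the cells that received Cre. The virus, given into the trachea, was Lenti-sgNeo1/sgNT1/sgNeo2/Cre with inert guides (sgInert, 7 libraries), Lenti-sgCebpa/sgCebpb/sgCebpd/Cre against the 3 C/EBP transcription factors (sgCebpa/b/d, 7 libraries) or Lenti-sgLkb1/Cre against the kinase gene *Lkb1*, whose mouse symbol is *Stk11* (sgLkb1, 5 libraries). Cells bearing CD45, CD31, F4/80 or Ter119 had been excluded by the sort. Guides cut in a population of tumor cells, so a library can hold edited and unedited alleles.

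Total expected counts ran from 2760731 to 9944134 per library, and within each group no 2 libraries agreed within sampling noise. Titles of 4 sgInert libraries carried an animal number starting with ZR, those of 3 sgInert, 4 sgCebpa/b/d and 3 sgLkb1 libraries a number starting with MT, and those of 3 sgCebpa/b/d and 2 sgLkb1 libraries none. Of the 10 numbered animals, 3 gave more than 1 library, so n counts libraries and not mice, and p-values measure the spread between libraries. In sgInert, 3 ZR and 1 MT libraries were male, and 1 ZR and 2 MT libraries were female. All sgLkb1 libraries were female, and the 3 sgCebpa/b/d libraries without a number were the only male ones of that group. Summed over 8 macrophage markers, those 3 libraries held 704.1 to 1001 TPM and the 2 sgLkb1 libraries without a number 149.6 and 445.4 TPM, against 0.13 to 5.13 TPM in all MT libraries and 10.3 to 231.4 TPM in ZR libraries. The 8 alveolar type II markers were high throughout, at 31556 to 68506 TPM in sum. *Stk11* was at 7.53 to 12.5 CPM (the usual scaling of counts to a common library size, here with TMM factors) in sgLkb1 and at 19.5 to 22.9 CPM in sgInert. *Cebpa* was higher in sgCebpa/b/d than in sgInert (log2 fold change 0.73 ± 0.14 SE, edgeR adjusted p = 0.00148). *Cebpb* (1.16 ± 0.37, adjusted p = 0.0524) and *Cebpd* (0.20 ± 0.28, adjusted p = 0.742) were not called. Guide-made insertions and deletions need not lower a transcript.

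The upstream sequences of 5 members are shown because the comparisons below turn on these genes. *Hmgcs1*, *Srebf2*, *Soat1* and *Npc2* were lower with sgCebpa/b/d, and *Pmvk* was higher with sgLkb1. Each run holds the 250 bases before a RefSeq start site (build GRCm38.p6), 5′ to 3′ on the gene's own strand. Capitals mark the sterol regulatory element core TCACNCCAC, the NF-Y box CCAAT and the C/EBP site TTGCNNAA, each on either strand.
Hmgcs1: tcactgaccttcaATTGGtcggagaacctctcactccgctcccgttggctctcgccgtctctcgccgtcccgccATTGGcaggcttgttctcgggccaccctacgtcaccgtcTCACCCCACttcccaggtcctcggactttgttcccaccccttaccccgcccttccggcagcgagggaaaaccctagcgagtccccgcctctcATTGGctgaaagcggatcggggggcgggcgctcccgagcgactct
Srebf2: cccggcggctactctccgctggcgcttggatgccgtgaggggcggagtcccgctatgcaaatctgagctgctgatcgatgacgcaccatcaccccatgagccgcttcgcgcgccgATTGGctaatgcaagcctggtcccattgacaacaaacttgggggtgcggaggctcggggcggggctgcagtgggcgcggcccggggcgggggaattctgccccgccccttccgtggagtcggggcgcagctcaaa
Soat1: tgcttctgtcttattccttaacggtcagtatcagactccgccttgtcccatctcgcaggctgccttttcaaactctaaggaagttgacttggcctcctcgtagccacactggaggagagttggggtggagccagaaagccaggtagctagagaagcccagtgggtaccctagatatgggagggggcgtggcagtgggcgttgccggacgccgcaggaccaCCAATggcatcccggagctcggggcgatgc
Npc2: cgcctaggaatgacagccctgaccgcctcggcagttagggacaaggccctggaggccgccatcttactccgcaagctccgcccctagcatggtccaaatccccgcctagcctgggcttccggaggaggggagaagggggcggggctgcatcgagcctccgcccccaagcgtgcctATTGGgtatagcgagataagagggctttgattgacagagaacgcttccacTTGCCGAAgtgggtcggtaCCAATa
Pmvk: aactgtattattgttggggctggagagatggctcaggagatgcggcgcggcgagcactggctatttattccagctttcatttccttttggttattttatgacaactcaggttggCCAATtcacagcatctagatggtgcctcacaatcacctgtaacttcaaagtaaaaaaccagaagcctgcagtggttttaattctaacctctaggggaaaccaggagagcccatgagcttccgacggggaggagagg
These stretches lie at chr13:119690101-119690350, plus strand (*Hmgcs1*), chr15:82147019-82147268, plus strand (*Srebf2*), chr1:156474329-156474578, minus strand (*Soat1*), chr12:84773113-84773362, minus strand (*Npc2*) and chr3:89454291-89454540, plus strand (the first of 2 listed *Pmvk* starts). The motifs were searched in the 300 bases from 250 before to 50 after each start. RefSeq promoters matched 25 of the 31 members. The NF-Y box was found in 21 of these 25 (84%), 11 of the 12 that were lower with sgCebpa/b/d and 10 of the 13 others, and in 41.1% of 27025 genes. The strict 9-base SRE core was found in 1 of 25 members, *Hmgcs1* (4%), where it starts 137 bases before the start site, and in 1.44% of all genes. The C/EBP site was found in 3 of 25 (12%), *Nsdhl*, *Dhcr7* and *Npc2*, and in 12.2% of all genes. In *Nsdhl* its bases overlap an NF-Y box. These are matches of letters only, and functional elements often depart from such strict patterns.

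Levels per length spanned a wide range in sgInert. The lysosomal sterol carrier *Npc2* had a median of 983.1 TPM and the esterifying enzyme *Soat1* 361.8 TPM. *Hmgcs1*, which makes HMG-CoA, followed at 107.3 TPM and *Idi1*, the isomerase of the isoprenoid units, at 76.97 TPM. At the low end stood *Mvd*, the mevalonate diphosphate decarboxylase, at 3.66 TPM, the reductase *Dhcr7* at 3.29 TPM, the ketoreductase *Hsd17b7* at 2.8 TPM and the efflux transporter *Abcg1* at 0.37 TPM. *Mvd* rested on 3 to 56 counts per library and *Abcg1* on 0 to 82, so small changes in either were not detectable at this depth.

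With sgCebpa/b/d, enzymes of every stretch of sterol synthesis, from acetyl-CoA to cholesterol, were among the transcripts that fell, together with *Srebf2*, *Insig1* and 3 genes of sterol movement and storage. Against sgInert, 15 of the 31 members were lower and 0 were higher at an edgeR adjusted p under 0.05, where 5.36% of all tested genes were lower and 4.73% higher. DESeq2 and limma also called 0 members higher, and 1, *Abcg1*, was higher at an unadjusted p under 0.05. The 15 were 10 of the 19 enzymes (*Acat2*, *Hmgcs1*, *Idi1*, *Fdps*, *Sqle*, *Lss*, *Cyp51*, *Msmo1*, *Nsdhl* and *Sc5d*) and 5 of the 12 others (*Insig1*, *Srebf2*, *Npc1*, *Npc2* and *Soat1*). The fitted log2 fold change was below 0 for 18 of 19 enzymes, with a median of −0.92, while the median of all genes tested was 0.02. For 5 members, *Hmgcs1*, *Fdps*, *Srebf2*, *Npc1* and *Soat1*, every sgCebpa/b/d library lay below every sgInert library, which 2.09% of all genes did. Among MT libraries alone 16 members were lower. Without the 5 libraries that have no animal number 9 were lower, namely *Hmgcs1*, *Idi1*, *Fdps*, *Cyp51*, *Msmo1*, *Srebf2*, *Npc1*, *Npc2* and *Soat1*. Without 6 libraries whose macrophage markers summed to over 100 TPM, a choice made after seeing the data, 13 were lower.

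**Figure D1:**
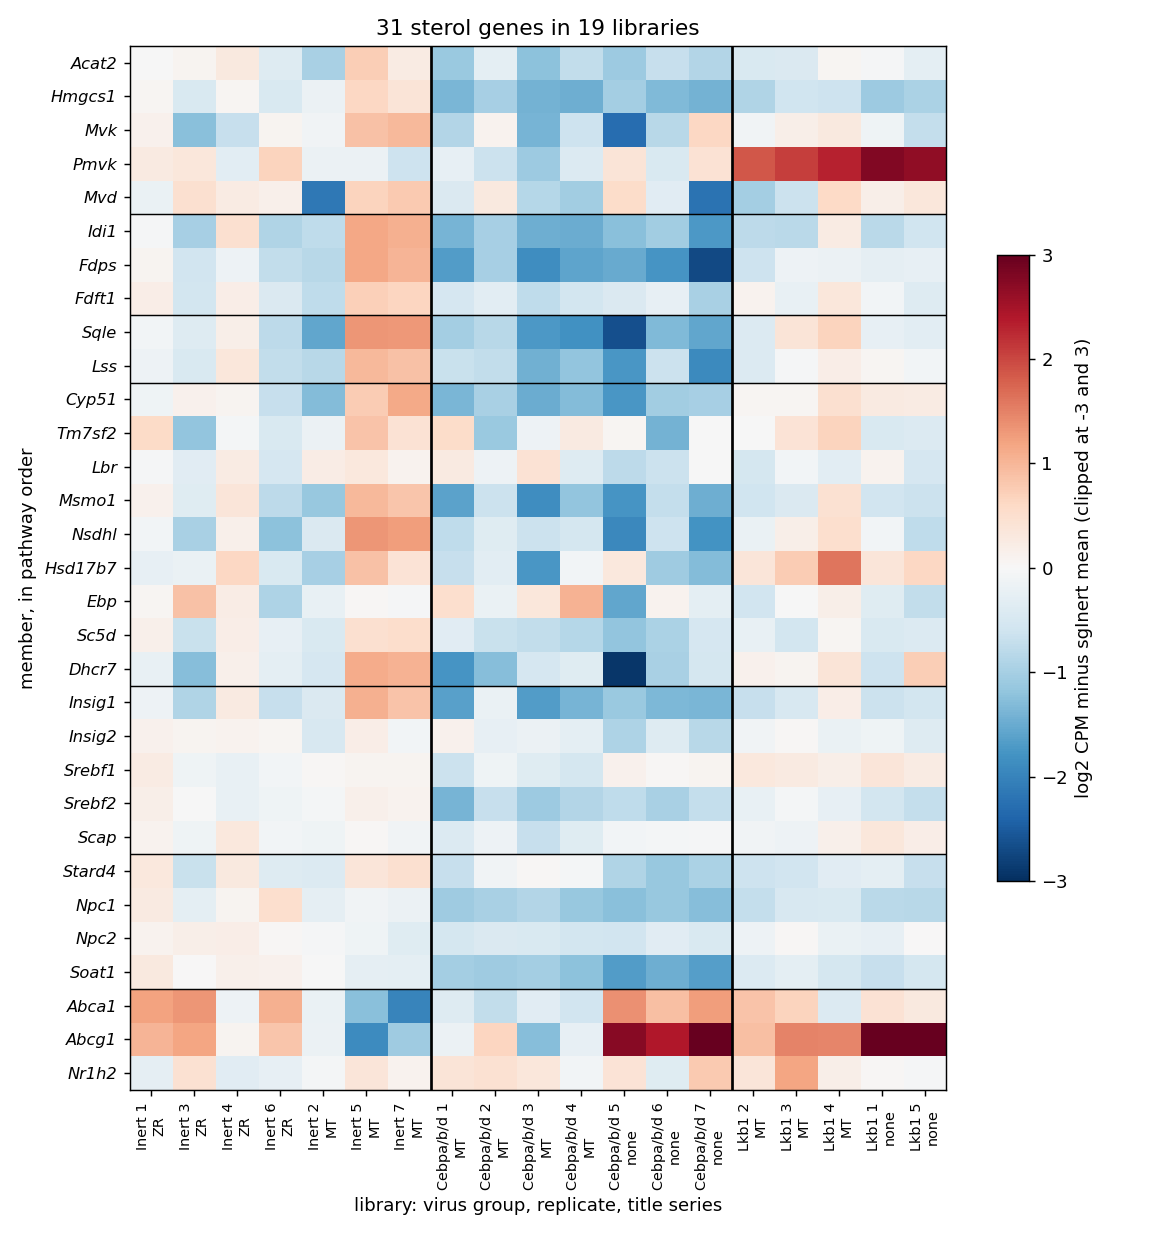
Heat map of the 31 members (rows, in pathway order) in the 19 libraries (columns, by virus group, replicate and title series), with colour for log2 CPM minus the sgInert mean of that gene. The sgCebpa/b/d columns are blue for most synthesis enzymes and for *Srebf2*, *Npc1* and *Soat1*, sgInert replicates 5 and 7 are red for most enzymes, and *Pmvk* is dark red in all 5 sgLkb1 columns.

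In the first steps, from acetyl-CoA to the mevalonate phosphates, the largest difference was in *Hmgcs1* (chr13:119690379-119708260), which was at 173.4, 248.1 and 366.8 CPM (lowest, median and highest) in sgInert and at 86.4, 92.7 and 119.0 CPM in sgCebpa/b/d. The groups did not overlap, and the log2 fold change was −1.33 ± 0.15 (SE, edgeR adjusted p = 3.88e-06). *Acat2*, the cytosolic thiolase that starts the pathway, fell by 0.92 ± 0.21 on the log2 scale (adjusted p = 0.00668). Among MT libraries alone, which are fewer, its log2 fold change was −0.97 and missed the threshold (adjusted p = 0.109). The kinases *Mvk* and *Pmvk* and the decarboxylase *Mvd* had log2 fold changes of −0.73 ± 0.45, −0.27 ± 0.24 and −0.61 ± 0.47 and did not pass the test.

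From isoprenoid units to lanosterol, 4 of 5 enzymes fell. *Fdps*, which makes farnesyl diphosphate, was at 22.4, 36.1 and 89.6 CPM in sgInert and at 5.85, 12.3 and 19.9 CPM in sgCebpa/b/d. Its fall was the largest among the members (log2 fold change −1.88 ± 0.30, adjusted p = 0.000241), and the groups did not overlap. The annotated gene *Gm43738* shares 26.7% of *Fdps* exonic bases and was assigned 0 counts in every library. *Idi1* fell by 1.57 ± 0.31 (adjusted p = 0.00148), the squalene epoxidase *Sqle* by 1.81 ± 0.38 (adjusted p = 0.00273) and the lanosterol synthase *Lss* by 1.30 ± 0.28 (adjusted p = 0.00349), each on the log2 scale. For these 3 genes the highest sgCebpa/b/d library lay above the lowest sgInert library. *Sqle* and *Lss* were past the threshold among MT libraries (adjusted p = 0.0149 and 0.0103) but not without the libraries that have no number (adjusted p = 0.0531 and 0.0517). Squalene synthase, *Fdft1*, had a log2 fold change of −0.62 ± 0.20 and missed the threshold (adjusted p = 0.0539). *Fdft1* shares 18.3% of its exonic bases with *Ctsb* on the opposite strand, whose 588 to 2192 counts per library exceed its own 142 to 941, so reads of the pair may not be separable if strand was not used.

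From lanosterol to cholesterol, 4 of 9 enzymes fell: the demethylase *Cyp51* by 1.45 ± 0.26 (adjusted p = 0.000813), the methylsterol oxidase *Msmo1* by 1.43 ± 0.30 (adjusted p = 0.00321), the dehydrogenase *Nsdhl* by 1.17 ± 0.37 (adjusted p = 0.0487) and the desaturase *Sc5d* by 0.80 ± 0.18 (adjusted p = 0.0048), each on the log2 scale. *Cyp51* was at 20.2, 52.9 and 111.6 CPM in sgInert and at 14.7, 20.3 and 25.2 CPM in sgCebpa/b/d, and only the lowest sgInert library reached the range of sgCebpa/b/d. *Nsdhl* was the least stable of these calls and was called in 9 of 31 alternative fits. *Dhcr7*, the reductase of the last step, had a log2 fold change of −1.27 ± 0.41 and missed the threshold (adjusted p = 0.0522), as did *Hsd17b7* at −0.69 ± 0.33 (adjusted p = 0.22). The paralogous sterol reductases *Tm7sf2* and *Lbr*, of which *Lbr* also tethers lamin at the nuclear envelope, were at −0.31 ± 0.37 and −0.16 ± 0.18, and the isomerase *Ebp* was at 0.09 ± 0.34.

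**Figure D2:**
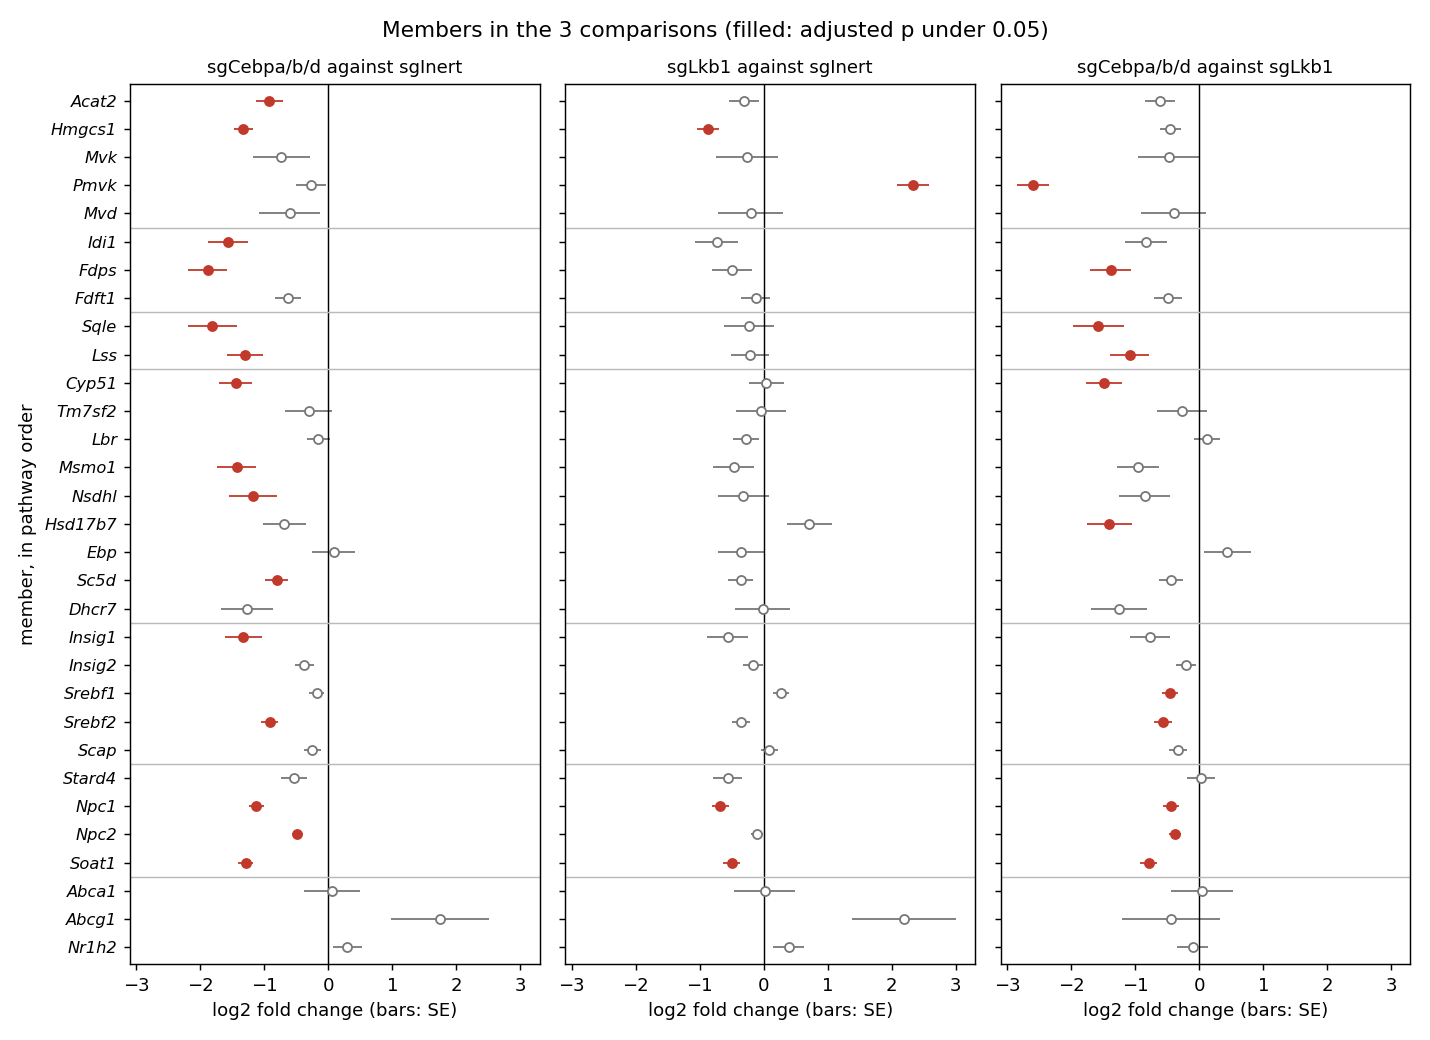
Log2 fold change of each member (bars: SE) in the 3 comparisons, in pathway order, filled red where the edgeR adjusted p is under 0.05. In sgCebpa/b/d against sgInert 15 points are red and all lie left of 0, in sgLkb1 against sgInert *Pmvk* (2.33) is the only red point right of 0, and in sgCebpa/b/d against sgLkb1 11 points are red, with *Pmvk* at −2.60.

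Of the 5 genes of SREBP control, *Srebf2* and *Insig1* fell. *Srebf2*, which encodes the SREBP that acts mainly on sterol genes, was at 43.1, 49.6 and 57.0 CPM in sgInert and at 18.8, 27.1 and 31.2 CPM in sgCebpa/b/d. All sgCebpa/b/d libraries were below all sgInert libraries (log2 fold change −0.92 ± 0.13, adjusted p = 4.19e-05). *Insig1*, an SREBP target that feeds back on its own activator, fell by 1.33 ± 0.29 on the log2 scale (adjusted p = 0.00417), though sgCebpa/b/d replicate 2, at 98.6 CPM, stood apart from the 34.9 to 52.4 CPM of the other 6. Its call was lost without the libraries that have no number (adjusted p = 0.0731). *Insig2*, the paralog of *Insig1*, was at −0.38 ± 0.14 (adjusted p = 0.109), *Srebf1* at −0.18 ± 0.12 and the escort *Scap* at −0.25 ± 0.13, none past the threshold.

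Of the 4 genes of sterol movement and storage, 3 fell, each at an adjusted p under 0.05 in all 31 alternative fits. With a log2 fold change over 1 also required, *Soat1* and *Npc1* were called and *Npc2* was not. *Soat1* (chr1:156424525-156474331), which esterifies cholesterol for storage, was at 750.3, 925.3 and 1132 CPM in sgInert and at 291.4, 392.9 and 458.8 CPM in sgCebpa/b/d. The groups were far apart (log2 fold change −1.29 ± 0.12, adjusted p = 4.16e-07). *Npc1*, the membrane protein that hands cholesterol out of the lysosome, was at 141.5, 159.7 and 242.6 CPM against 70.4, 78.6 and 94.1 CPM (−1.13 ± 0.12, adjusted p = 1.66e-06). Its soluble partner *Npc2* went from a median of 2332 CPM to 1658 CPM, a smaller fall (−0.49 ± 0.09, adjusted p = 0.000579), with 1 library of sgCebpa/b/d at 1815 CPM and 1 of sgInert at 1787 CPM. Among MT libraries alone the differences of *Soat1*, *Npc1* and *Npc2* were −0.90, −0.83 and −0.34 and remained past the threshold. *Stard4*, a carrier of sterol through the cytosol, was at −0.53 ± 0.21 (adjusted p = 0.109).

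**Figure D3:**
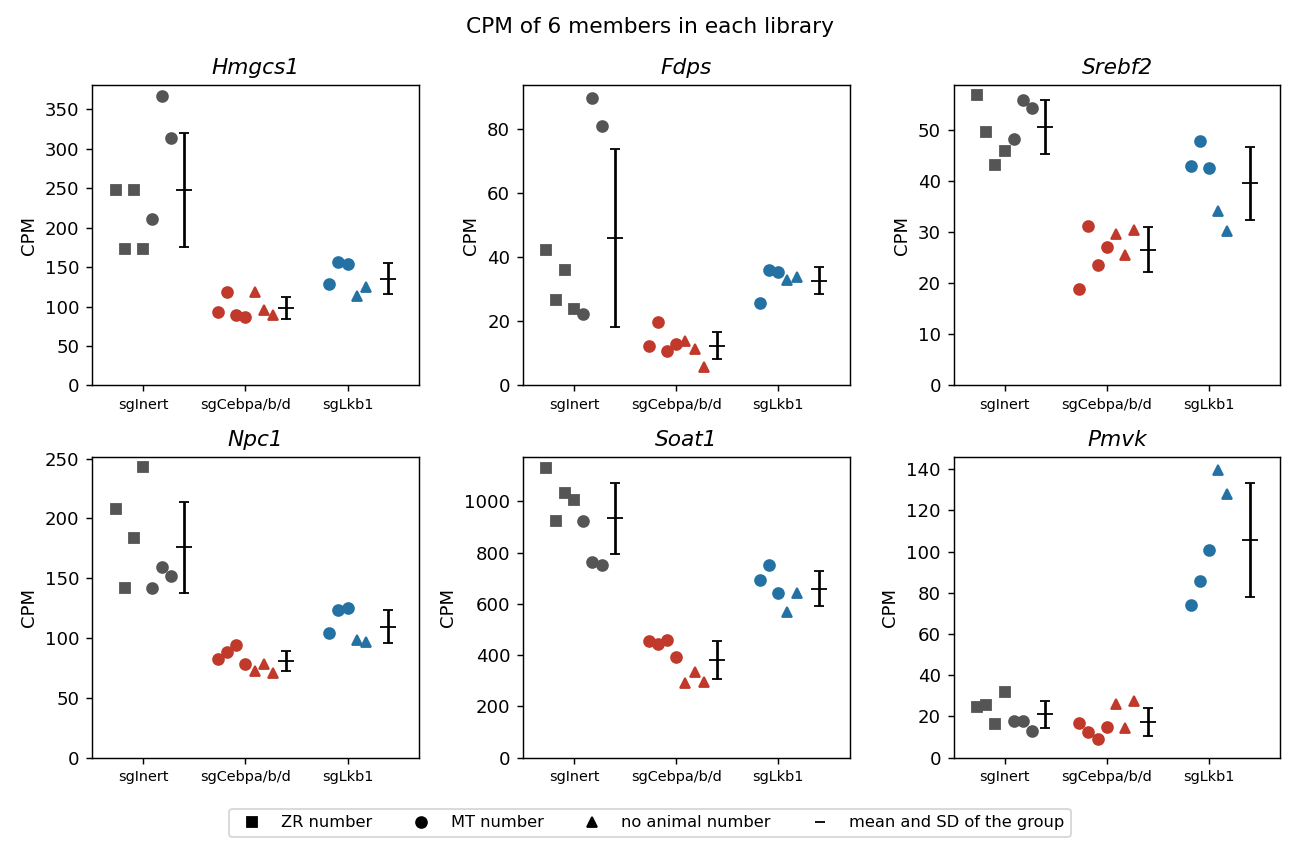
CPM (linear axis from 0) of *Hmgcs1*, *Fdps*, *Srebf2*, *Npc1*, *Soat1* and *Pmvk* in each library, by virus group, with the marker shape for the title series and a bar for the mean and SD of the group (n = 7, 7 and 5). In the first 5 panels all sgCebpa/b/d points lie below all sgInert points, and in the *Pmvk* panel the 5 sgLkb1 points, from 74.0 to 139.4 CPM, lie above all others.

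None of the 3 genes of efflux and LXR was called. *Abca1*, *Abcg1* and the LXR gene *Nr1h2* had log2 fold changes of 0.06 ± 0.44, 1.75 ± 0.77 and 0.29 ± 0.22 and did not pass the test (adjusted p = 0.962, 0.167 and 0.477). Values of *Abcg1* differed with the title series in all 3 groups and those of *Abca1* in sgCebpa/b/d and sgInert. *Abcg1* was at 5.92 to 10.4 CPM in the 3 sgCebpa/b/d libraries without a number and at 0.16 to 1.53 CPM in the 4 MT libraries of that group, and *Abca1* was at 100.3 to 140.3 CPM and 32.0 to 42.7 CPM in the same sets. In sgInert, *Abca1* was at 48.2 to 134.7 CPM in ZR and at 13.4 to 46.5 CPM in MT libraries, and *Abcg1* at 0.93 to 2.39 CPM and 0 to 0.73 CPM. In sgLkb1, *Abcg1* was at 9.03 and 9.46 CPM without a number and at 1.88 to 3.03 CPM in MT libraries, but *Abca1* was at 66.0 and 72.8 CPM without a number, inside the 40.6 to 96.9 CPM of the MT libraries. The macrophage marker sums given above were higher in ZR libraries and in those without a number than in MT libraries of the same group, so in sgLkb1 they moved with *Abcg1* and not with *Abca1*. Their part in these values was not tested, and sex, title series and marker sums cannot be told apart within sgCebpa/b/d. As in any bulk sample, fewer cells of a type and less RNA per cell cannot be told apart either.

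**Figure D4:**
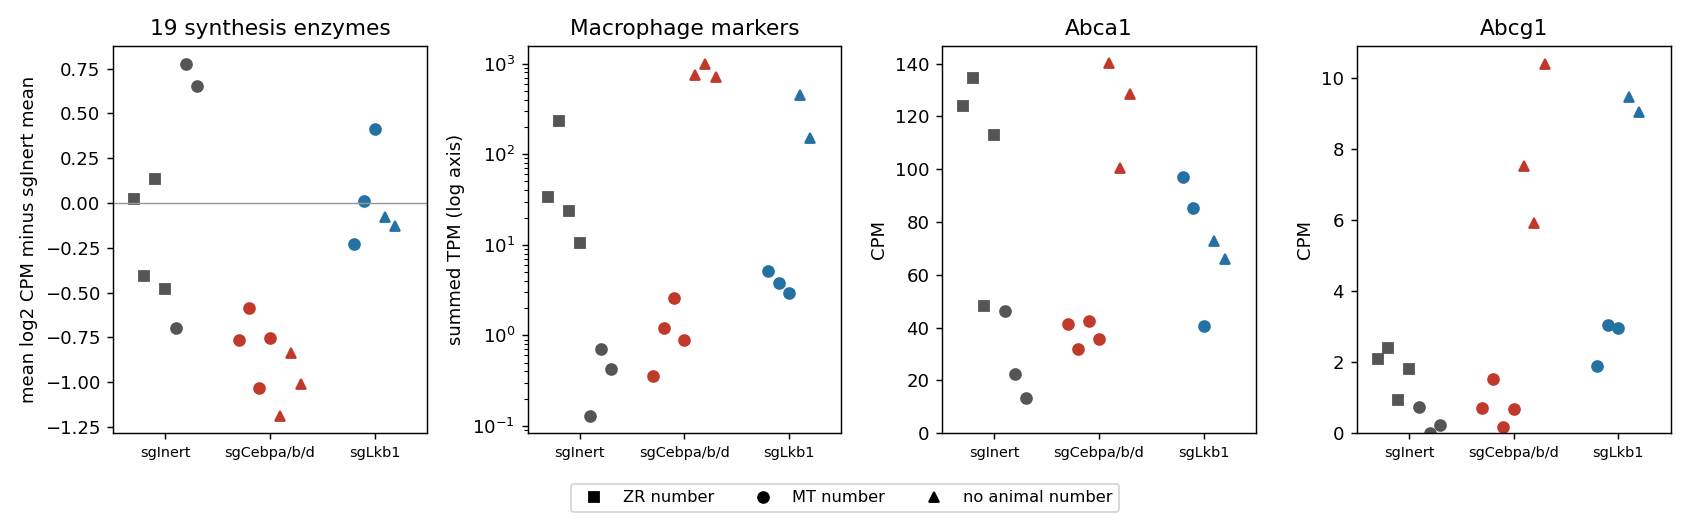
For each library, by virus group (colour) and title series (marker): the mean over 19 synthesis enzymes of log2 CPM minus the sgInert mean, the summed TPM of 8 macrophage markers (log axis), and the CPM of *Abca1* and *Abcg1* (linear axes from 0). For the enzymes, the 4 MT libraries of sgCebpa/b/d lie from −1.03 to −0.59 and the 3 without a number from −1.19 to −0.84. The libraries without a number are high for the macrophage markers and for *Abcg1*.

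Libraries of 1 group differed in the level of the enzymes as a whole. The mean over 19 enzymes of log2 CPM minus the sgInert mean ran from −0.70 to 0.78 in sgInert, from −0.23 to 0.41 in sgLkb1 and from −1.19 to −0.59 in sgCebpa/b/d. The lowest sgInert library, replicate 2, had 18 of 19 enzymes below the sgInert mean and the highest, replicate 5, had 1, although the titles of both carry the same animal number. So 1 sgInert library lay within the range of sgCebpa/b/d. The 4 MT libraries of sgCebpa/b/d were at −1.03 to −0.59 and the 3 without a number at −1.19 to −0.84, and 15 to 18 enzymes were below the sgInert mean in each. Summed TPM of 8 proliferation genes overlapped between the groups, at 84.8 to 324.7 in sgInert, at 170.4 to 248.6 in sgLkb1 and at 130.3 to 368.9 in sgCebpa/b/d. With sgCebpa/b/d, 5 of 8 alveolar type II markers were called lower than in sgInert, beside 5.36% of all genes. Of the alveolar type I markers 4 of 5 were called higher, beside 4.73%, at 718.9 to 1476 TPM in sum against 399.1 to 601.9 TPM. Of the endothelial markers 5 of 6 were called higher (11.4 to 104.55 TPM in sum against 5.78 to 16.9 TPM) and of the fibroblast markers 2 of 7 (29.95 to 138.1 TPM against 4.04 to 51.7 TPM). The endothelial sum was 87.86 to 104.55 TPM in the 3 sgCebpa/b/d libraries without a number and 11.44 to 23.57 TPM in the 4 MT ones. In sgLkb1 the alveolar type I, endothelial and fibroblast sums were 723.79 to 878.68, 28.85 to 86.05 and 45.96 to 136.8 TPM. With sgLkb1 against sgInert, 4 of 8 alveolar type II markers were called lower, beside 2.97% of all genes. Called higher were 0 of 5 alveolar type I, 1 of 6 endothelial and 2 of 7 fibroblast markers, beside 2.81% of all genes. The part of these markers in the enzyme differences was not tested. A term for sex by virus, which could be fitted only for sgCebpa/b/d against sgInert, was past the threshold for 0 of the 30 members tested and for 0.168% of 12500 genes. At an unadjusted edgeR p under 0.05 the term held 2 members. *Soat1* had a log2 fold change of −1.05 in females and −1.62 in males (adjusted p = 0.264), and *Insig2* one of −0.11 and −0.74 (adjusted p = 0.378). In sgCebpa/b/d the females were the MT libraries and the males those without a number, so sex and title series cannot be told apart in this term.

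With sgLkb1, 4 of the 31 members passed the test against sgInert, *Pmvk* higher and 3 others lower. *Pmvk* (chr3:89454541-89469013) encodes phosphomevalonate kinase, a middle step of the mevalonate route. It was at 74.0, 85.8, 100.7, 128.0 and 139.4 CPM in the 5 sgLkb1 libraries, at 12.9, 17.9 and 32.0 CPM (lowest, median and highest) in sgInert and at 9.23, 14.9 and 27.4 CPM in sgCebpa/b/d. Every sgLkb1 library was above every other library. The log2 fold change against sgInert was 2.33 ± 0.25 (adjusted p = 5.13e-06), 5.04-fold on the linear scale, and it was at least 2.05 and past the threshold in all 31 alternative fits. It was 2.41 among MT libraries alone (adjusted p = 2.17e-05). The 2 sgLkb1 libraries with the highest *Pmvk* were those without an animal number. *Pmvk* was the only member called higher, 1 of 31, where 2.81% of all tested genes were called higher and 2.15% had all libraries above those of sgInert.

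The genes next to *Pmvk* were looked at after this value was seen. No annotated gene overlaps *Pmvk*. *Pbxip1*, upstream, rose by 0.63 ± 0.13 on the log2 scale with sgLkb1 (adjusted p = 0.00469) and the potassium channel gene *Kcnn3*, downstream, by 1.93 ± 0.41 (adjusted p = 0.00643). *Kcnn3* was spread widely in sgInert, at 1.46, 4.90 and 26.2 CPM (lowest, median and highest), and its lowest sgLkb1 library, at 26.7 CPM, lay just above that range. With sgCebpa/b/d neither neighbour was past the threshold against sgInert (adjusted p = 0.106 for *Pbxip1* and 0.363 for *Kcnn3*).

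Lower with sgLkb1 were 3 of 31 members, *Hmgcs1*, *Npc1* and *Soat1*, beside 2.97% of all genes. *Hmgcs1* was at 113.1, 124.5, 128.7, 154.5 and 157.0 CPM in sgLkb1, all below the lowest sgInert library (log2 fold change −0.87 ± 0.17, adjusted p = 0.00243). *Npc1* was at 96.8, 98.1, 104.4, 123.3 and 124.8 CPM, also below all sgInert libraries (−0.68 ± 0.13, adjusted p = 0.00272), as were 2.00% of all genes. *Soat1*, at 570.0, 640.8, 640.8, 695.0 and 752.1 CPM, reached into the sgInert range with its highest library (−0.50 ± 0.13, adjusted p = 0.0267). The call of *Soat1* was lost when sgInert replicate 1 or sgLkb1 replicate 1, 2, 4 or 5 was left out (adjusted p from 0.0514 to 0.0876). Of the 3, only *Hmgcs1* was called among MT libraries alone (adjusted p = 0.00279). None of the 3 was called without the libraries that have no number (adjusted p = 0.054 for *Hmgcs1*, 0.0547 for *Npc1* and 0.0776 for *Soat1*). The median over 19 enzymes was −0.26, and it turned to 0.12 with limma on log2(TPM + 1), a scale on which the median of all genes was itself shifted to 0.18 and the calls over all genes went from 416 lower and 393 higher to 148 lower and 783 higher.

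The remaining members were not past the threshold with sgLkb1. *Cyp51* was at 0.04 ± 0.28, *Lss* at −0.21 ± 0.30, *Sqle* at −0.23 ± 0.39, *Fdps* at −0.49 ± 0.32, *Idi1* at −0.74 ± 0.33 and *Srebf2* at −0.35 ± 0.14 (adjusted p = 0.146) on the log2 scale. *Hsd17b7* was at 0.71 ± 0.35 (adjusted p = 0.284), *Srebf1* at 0.27 ± 0.13 (adjusted p = 0.249) and *Abcg1* at 2.19 ± 0.81 (adjusted p = 0.126). With sex as a covariate *Srebf1* (0.43, adjusted p = 0.0341) and *Abcg1* (3.97, adjusted p = 0.00115) were called higher and *Stard4* lower (−0.83, adjusted p = 0.0265). In that fit the sex term came only from sgInert and sgCebpa/b/d, since all sgLkb1 libraries were female. Within sgCebpa/b/d sex cannot be told apart from title series. Among MT libraries alone *Abca1* was called higher (1.41, adjusted p = 0.0303). Of the 5 sgLkb1 libraries, replicate 4 had the highest *Idi1* (183.2 CPM), *Msmo1* (62.8 CPM) and *Insig1* (130.2 CPM), while the other 4 lay close together.

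The targeted contexts were compared directly, since both of the comparisons above use the same sgInert libraries. With sgCebpa/b/d, 11 of 31 members were lower and 0 higher than with sgLkb1, where 3.12% of all genes were lower and 2.83% higher. At an unadjusted p under 0.05 edgeR also found 0 higher, and DESeq2 and limma called 0. With limma on log2(TPM + 1) the median over the genes tested shifted to −0.15, and limma called 12 members lower, beside 805 genes lower and 162 higher in place of 437 and 396. The 11 called by edgeR were the enzymes *Pmvk* (−2.60 ± 0.25), *Fdps* (−1.39 ± 0.32), *Sqle* (−1.58 ± 0.40), *Lss* (−1.09 ± 0.30), *Cyp51* (−1.49 ± 0.28) and *Hsd17b7* (−1.40 ± 0.36), with *Srebf1* (−0.45 ± 0.13), *Srebf2* (−0.56 ± 0.14), *Npc1* (−0.44 ± 0.13), *Npc2* (−0.38 ± 0.09) and *Soat1* (−0.79 ± 0.13). For 11 members all sgCebpa/b/d libraries lay below all sgLkb1 libraries, as for 2.87% of all genes; these were the called members other than *Srebf2*, with *Idi1* in its place. *Cyp51*, for example, was at 52.6, 52.7, 59.1, 60.1 and 70.0 CPM in sgLkb1, and no sgCebpa/b/d library exceeded 25.2 CPM (adjusted p = 0.00187). The differences of *Soat1* and *Pmvk* between the contexts were called at an adjusted p under 0.05 in all 31 alternative fits (adjusted p = 0.000527 and 1.62e-06 as first fitted), and the other 9 were not. Against sgInert, *Pmvk* was not called with sgCebpa/b/d (−0.27 ± 0.24, edgeR adjusted p = 0.554) and was higher with sgLkb1. *Soat1*, unlike *Pmvk*, was not called where a log2 fold change over 1 was also required. In every fit that left out 1 library 4 of the 11 were called. Without the 5 libraries that have no number 4 members, *Pmvk*, *Srebf1*, *Srebf2* and *Soat1*, were lower, and leaving out sgLkb1 replicate 3 or 4 left 5 or 6. *Hmgcs1*, lower than sgInert in both contexts, was at −0.46 ± 0.16 between them and missed the threshold (adjusted p = 0.113).

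Other genes of sterol and SREBP biology were read from lists of 51 genes, of which 48 were tested. With sgCebpa/b/d, 13 of the 48 were lower and 1 was higher, beside 5.36% and 4.73% of all genes, and 9 of the 13 were among the 11 tested SREBP-1 targets of fatty acid synthesis, whose median log2 fold change was −1.14. *Scd1*, the stearoyl-CoA desaturase, was at 7714, 10051 and 14999 CPM in sgInert and at 2363, 3224 and 5075 CPM in sgCebpa/b/d (−1.68 ± 0.17, adjusted p = 7.59e-07). *Acaca*, the acetyl-CoA carboxylase, fell by 0.96 ± 0.10 (adjusted p = 1.66e-06) and the lipoprotein receptor gene *Vldlr* by 1.93 ± 0.23 (adjusted p = 7.29e-06) on the log2 scale. Among 10 genes of the isoprenoid branch, which draws on the same precursors for ubiquinone, dolichol and prenylated proteins, 0 were called in any of the 3 comparisons, and their median with sgCebpa/b/d was 0.09. At an unadjusted p under 0.05 edgeR found 0 in each comparison as well. With sgLkb1, 2 of the 48 were lower and 2 higher, beside 2.97% and 2.81% of all genes, shares near the background. The 3 with the smallest p were *Mid1ip1*, an activator of acetyl-CoA carboxylase (−1.09 ± 0.21, adjusted p = 0.0031), the oxysterol hydroxylase *Cyp7b1* (3.46 ± 0.93, adjusted p = 0.0278) and the phospholipid transfer gene *Pltp* (2.06 ± 0.56, adjusted p = 0.0303). The median CPM of *Cyp7b1* was 0 in sgInert and 2.19 in sgLkb1, and that of *Pltp* 0.75 and 4.38, so both rest on few reads. Between the contexts 8 of the 48 were lower with sgCebpa/b/d and 1 higher, beside 3.12% and 2.83% of all genes, led by *Scd1* (−2.21 ± 0.18, adjusted p = 1.38e-07), the fatty acid synthase *Fasn* (−0.99 ± 0.14, adjusted p = 0.000131) and *Acaca* (−0.72 ± 0.11, adjusted p = 0.000213).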

How the data were processed

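RNA from sorted neoplastic cells was made into libraries with the Trio RNA-Seq kit, and no source used here states whether strand was used in counting. The authors aligned reads to mm10 with STAR 2.6.1d and estimated gene levels with RSEM 1.2.30, tools named in the submitters' processing notes together with DESeq2 1.26.0. The authors deposited, for each library, RSEM expected counts per gene and TPM values (corrected for gene length and library size). Deposited tables of DESeq2-normalised values and of the authors' own comparisons (fold changes and p-values) were not used.

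Expected counts were rounded and tested with the quasi-likelihood test of edgeR 4.0.16 in R 4.3.3 (glmQLFit, glmQLFTest, TMM factors) in 1 model of 19 libraries with no covariate. The filterByExpr function, with a count of at least 10 and a total of at least 15, left 13986 of 53558 genes, and p-values were adjusted by Benjamini-Hochberg over all of them. A gene was called at an adjusted p under 0.05. Errors of fold changes are SE, and log2 CPM used a prior count of 2. Groups came from the virus in the labels, and both comparisons with sgInert use the same 7 control libraries. TPM was used for levels between genes, for marker sums and for limma 3.58.1 on log2(TPM + 1). Alternatives were RLE factors, DESeq2 1.42.0, no filter, effective lengths as offsets, a sex covariate, subsets by title series, sums per animal number, 2 groups at a time, a replicate block and each library left out. Only the main model was tested on simulated data, for sgCebpa/b/d against sgInert, with changes placed in genes with higher counts. It recovered 72% of 100 genes changed by an absolute log2 fold change of 1 and 100% of 100 changed by 2. All genes were drawn with the same spread, the median over genes, and no title series, sex or shared animal was simulated. These shares therefore need not hold for members with a wider spread. Total expected counts of 2760731 to 9944134 per library limit the precision for genes with few reads.

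All 31 members are named. Of the other pathway genes, the 3 called genes with the smallest p in each comparison are named. Some items are not reported here. The members and lists were chosen with earlier results of these data known. Promoters are RefSeq sequences (GRCm38.p6), and gene positions come from GENCODE vM21 (GRCm38).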

Additional observations from a re-analysis of the deposited data

Results flagged for a closer look

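In 7 of 93 combinations of a member and a group, 1 library stood apart from the rest by Dixon's criterion on log2 CPM, which chance meets in about 1 of 20. In sgLkb1 replicate 4, *Idi1* was at 183.2 CPM (others 88.0 to 102.8), *Msmo1* at 62.8 CPM (others 29.0 to 34.0) and *Insig1* at 130.2 CPM (others 69.3 to 81.4). *Fdps* in sgLkb1 replicate 2 was at 25.7 CPM, below the 33.0 to 35.9 CPM of the other libraries of that group. In sgInert replicate 2, *Mvd* was at 0.55 CPM (others 3.02 to 6.33) and *Insig2* at 34.2 CPM (others 45.6 to 55.3). *Insig1* in sgCebpa/b/d replicate 2 was at 98.6 CPM, above the 34.9 to 52.4 CPM of the others. All 7 values came from MT libraries.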

How the results depend on the processing

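Of 15 members called lower with sgCebpa/b/d against sgInert, 9 were called at an adjusted p under 0.05 in each of 31 alternative fits and 14 in every fit that left out 1 library. With a log2 fold change over 1 also required 11 were called, *Srebf2* and *Npc2* not among them, and 9 were called without the 5 libraries that have no animal number. With sgLkb1 against sgInert, the 3 lower calls became 0 with a log2 fold change over 1 required, 1 with limma on log2(TPM + 1), 1 among MT libraries and 0 without the libraries that have no number. The 1 higher call became 3 with a sex covariate and 2 among MT libraries. Between sgCebpa/b/d and sgLkb1, the 11 lower calls became 6 with a log2 fold change over 1 required, 4 without the libraries that have no number, 7 with counts summed per animal number and 4 without the 6 libraries high in macrophage markers, an alternative chosen after seeing the data. The cause of these changes was not tested. Fits that left out or summed libraries also held fewer of them, and the part of that number was not tested either. Leaving out each library gave 14 to 18 lower and 0 higher with sgCebpa/b/d, 2 to 3 lower and 1 higher with sgLkb1, and 5 (without sgLkb1 replicate 3) to 12 lower between them, with 6 without sgLkb1 replicate 4. The median over enzymes then ran from −1.06 to −0.77, from −0.40 to −0.07 and from −0.91 to −0.57. No member's call reversed. Over all genes, calls with sgCebpa/b/d against sgInert (750 lower, 662 higher) became 487 and 394 without the libraries that have no number and 480 and 382 without the 6. With sgLkb1 they became 566 and 594 (DESeq2), 579 and 679 (sex), 281 and 244 (no number left out), 261 and 271 (summed), 272 and 296 (without sgLkb1 replicate 2) and 275 and 268 (without replicate 5). Between the contexts they became 230 and 225 (no number left out), 249 and 217 (summed), 316 and 261 (without sgLkb1 replicate 4) and 239 and 240 (without the 6).

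Replicate numbers did not pair the libraries: 2 of 17 same-numbered pairs had deviations correlated above 0.1 (−0.15 to 0.23). With the replicate block, 14 members were lower with sgCebpa/b/d, 3 lower and 1 higher with sgLkb1, and 7 lower between the contexts.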
